A study of Homo sapiens with 6 samples.

Results

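The BH3-only genes of the BCL2 family were compared between U2OS cells treated with an inhibitor of poly(ADP-ribose) glycohydrolase (PARG) and U2OS cells given the solvent. U2OS is an established human osteosarcoma line, described by the submitters as wild type. The 8 genes were BMF, BBC3 (its protein is PUMA), PMAIP1 (NOXA), BCL2L11 (BIM), BAD, BID, BIK and HRK, found by symbol among the 60708 gene identifiers of the deposited count tables. All 8 had enough counts to be tested. Cells of 3 libraries were kept in DMSO and cells of 3 libraries in 25 µM PDD00017273, called PARGi here, for 4 days, and no other treatment is named. The members were chosen by symbol as a family, and the family was selected on measured values of this same contrast, because BMF had been among the lower genes with the smallest p-values. The values of the members are therefore given as a description, without p-values.

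BH3-only proteins start the mitochondrial route of apoptosis. Each carries a short helix, the BH3 domain, that fits into a groove on survival proteins such as BCL2, BCL-XL (gene BCL2L1) and MCL1, and some can also bind the pore formers BAX and BAK directly. When BH3-only proteins outweigh the survival proteins, BAX and BAK open the outer mitochondrial membrane and caspases are activated. PUMA and NOXA are classically induced at the transcript level by DNA damage. The other members answer mainly to other inputs. BIM and BMF are known for loss of growth factors or of attachment, BAD is controlled by survival kinases, BID is cleaved by caspase-8, BIK sits at the endoplasmic reticulum, and HRK is best known from neurons.

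What the members share is the BH3 core itself. In the principal coding transcript of each gene a script searched for a leucine codon, 3 codons of any kind, a codon for glycine, alanine or serine, and an aspartate codon. The core was found 1 time in 7 members and 2 times in BID, where the second match is the known BH3 domain. The 18 bases of the core are in capitals with 18 coding bases on each side, 5′ to 3′ on the coding strand, from GENCODE 29 transcripts on GRCh38. They are shown because they define the family and show how far its members differ in sequence.
BMF (chr15:40104189-40104242, minus strand): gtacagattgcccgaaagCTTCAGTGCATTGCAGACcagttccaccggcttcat
BCL2L11 (chr2:111150085-111150138, plus strand): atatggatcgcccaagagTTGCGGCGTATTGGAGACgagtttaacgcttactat
HRK (chr12:116881164-116881217, minus strand): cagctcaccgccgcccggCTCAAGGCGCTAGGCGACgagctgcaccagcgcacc
BBC3 (chr19:47226573-47226626, minus strand): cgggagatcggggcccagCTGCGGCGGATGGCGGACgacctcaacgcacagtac
PMAIP1 (chr18:59902655-59902708, plus strand): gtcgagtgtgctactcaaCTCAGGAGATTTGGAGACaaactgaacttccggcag
BAD (chr11:64271616-64271669, minus strand): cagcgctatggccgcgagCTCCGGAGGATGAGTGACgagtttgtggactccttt
BID (chr22:17739409-17739462, minus strand): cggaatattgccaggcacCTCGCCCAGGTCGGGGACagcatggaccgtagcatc
BIK (chr22:43127698-43127751, plus strand): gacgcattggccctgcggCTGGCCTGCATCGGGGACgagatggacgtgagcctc

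The 8 genes lie on 7 chromosomes, since BID and BIK share chromosome 22. Of these cores, each of the 8 is a different run of bases, and all end in the same aspartate codon.

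The libraries held 60286931 to 80605145 counts each, and the totals did not separate the groups (exact two-sided permutation test, n = 3 per group, p = 0.7, where 0.1 is the smallest p possible). Levels are given as counts-per-million (CPM), libraries being scaled by TMM with factors from 0.9953 to 1.0068. Of 8 markers of the osteoblast and mesenchymal lineage, 2 (SP7 and TWIST1) stayed below 1 CPM in every library, and COL1A1, VIM and SPARC were abundant (means of 4370, 2480 and 1680 CPM in DMSO). The summed level of the 8 was 8320 to 8900 CPM in DMSO and 8430 to 8470 CPM in PARGi. The summed level of 10 markers of epithelial, blood, endothelial and neural cells was 6.45 to 6.81 CPM in DMSO and 6.2 to 6.71 CPM in PARGi. Single markers moved past the threshold used below: RUNX2 (log2 fold change -0.27), COL1A2 (-0.80) and SPARC (-0.08) were lower, and ALPL (0.23) and CDH1 (0.67, from 0.718 to 1.14 CPM) were higher. Their part in the results was not tested. In bulk RNA, fewer cells that hold a transcript and less transcript per cell cannot be told apart.

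Across the whole table, 24.3% of 20409 tested genes passed the threshold of an adjusted p of 0.05 in edgeR's quasi-likelihood test. Of the 8 BH3-only genes 7 passed, 4 of them higher (13.2% of all tested genes) and 3 lower (11.0%) in PARGi. Because the family was chosen with this contrast in view, nothing is read from that count. The lower genes were BMF, HRK and BCL2L11, the higher genes were BBC3, PMAIP1, BID and BAD, and BIK did not pass. The groups did not overlap for the same 7 genes, against 38.0% of all tested genes (19.8% with all PARGi libraries above, 18.2% with all below). The family thus held changes in both directions, with a median log2 fold change of 0.17 beside -0.01 over all tested genes.

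**Figure D1:**
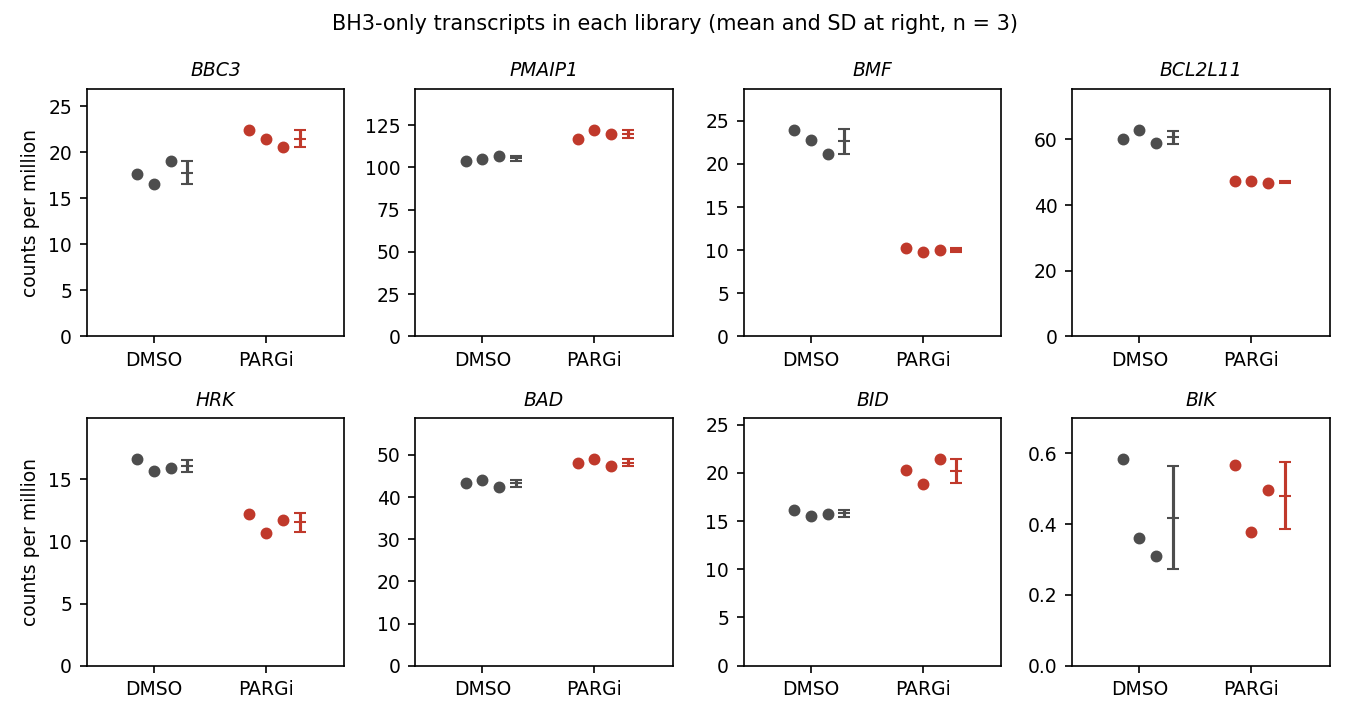
Level of each BH3-only gene in CPM (vertical axis, from 0) in the 3 DMSO and 3 PARGi libraries, 1 point per library, with the group mean and SD beside the points. BMF, BCL2L11 and HRK lay lower in every PARGi library, BBC3, PMAIP1, BAD and BID lay higher, and the BIK groups overlapped.

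The damage-induced members come first. BBC3 encodes PUMA, which binds all the main survival proteins. BBC3 was at 17.6, 16.6 and 19.1 CPM in DMSO replicates 1 to 3 and at 22.4, 21.5 and 20.6 CPM in PARGi replicates 1 to 3. All PARGi libraries were above all DMSO libraries, and the gap between the highest DMSO and the lowest PARGi library was narrower than the range within either group. The log2 fold change was 0.27 (SE 0.050, 95% confidence interval 0.17 to 0.37), a rise of 20.6% from 17.8 ± 1.29 to 21.5 ± 0.867 CPM (SD, n = 3 each). Exons of BBC3 overlap the microRNA gene MIR3191 on the same strand over 76 bases, and MIR3191 had 0 counts in every library. The part of this overlap in the BBC3 value was not tested.

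PMAIP1 encodes NOXA, which binds MCL1 above all. Its level was 104, 105 and 107 CPM in the DMSO libraries and 117, 122 and 120 CPM in the PARGi libraries. The libraries of each group lay close together and the groups were well apart, although the change was small. The log2 fold change was 0.19 (SE 0.026, 95% confidence interval 0.13 to 0.24), from 105 ± 1.12 to 120 ± 2.55 CPM (SD, n = 3 each). Both damage-induced members therefore moved up, by 20.6% and 13.7%. Of all tested genes, 21.0% and 31.9% had a larger log2 fold change in either direction. These shares also count genes that did not pass the threshold, among them scarce genes with imprecise fold changes.

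BMF was at the opposite end. Its protein is held at the cytoskeleton by dynein light chain 2 (gene DYNLL2) and is released by cell detachment and other stress. The raw counts of BMF were 1515, 1449 and 1568 in DMSO and 616, 722 and 801 in PARGi. In CPM the values were 23.9, 22.8 and 21.1 in DMSO and 10.3, 9.77 and 9.96 in PARGi. The highest PARGi library was below 50% of the lowest DMSO library, and the spread within PARGi was narrower than in DMSO. The log2 fold change was -1.17 (SE 0.052, 95% confidence interval -1.28 to -1.07), a change of -55.7%. The size of the BMF change was exceeded by 0.5% of all tested genes, and that of HRK, the next largest among the members, by 8.11%. Because the family was selected through BMF in this same contrast, nothing is read from the BMF share.

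BCL2L11 and HRK moved the same way as BMF, by less. BCL2L11 encodes BIM, which binds all the main survival proteins and, like BMF, a dynein light chain. The DMSO libraries held 60.1, 62.8 and 58.9 CPM and the PARGi libraries 47.3, 47.2 and 46.7 CPM, so the PARGi libraries were nearly equal and all below DMSO. The log2 fold change was -0.36 (SE 0.031, 95% confidence interval -0.43 to -0.30). HRK encodes Harakiri, a partner of BCL2 and BCL-XL. HRK stood at 16.6, 15.7 and 15.9 CPM with DMSO and at 12.2, 10.7 and 11.7 CPM with PARGi, again without overlap. The log2 fold change of HRK was -0.48 (SE 0.053, 95% confidence interval -0.59 to -0.37), a change of -28.4%.

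BID and BAD were higher. BID links death receptors to mitochondria once caspase-8 has cut it. The BID level was 16.2, 15.5 and 15.7 CPM with DMSO and 20.3, 18.9 and 21.4 CPM with PARGi, and the PARGi libraries were spread more widely than the DMSO libraries. Its log2 fold change of 0.36 (SE 0.049, 95% confidence interval 0.26 to 0.46) was above that of either damage-induced member. BAD, which survival kinases such as AKT and PIM switch off by phosphorylation, had 43.4, 44.0 and 42.3 CPM with DMSO and 48.1, 48.9 and 47.3 CPM with PARGi. The groups of BAD were separate, and its log2 fold change of 0.15 (SE 0.032, 95% confidence interval 0.09 to 0.22) was the smallest among the 7 genes that passed.

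BIK was barely present. Its raw counts were 37, 23 and 23 in DMSO and 34, 28 and 40 in PARGi, which is 0.309 to 0.583 CPM over all libraries. The groups overlapped, and the log2 fold change of 0.21 had a 95% confidence interval from -0.37 to 0.78. No BIK difference was detectable with so few counts, and changes the size of those of BID and BCL2L11 lie inside its interval.

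**Figure D2:**
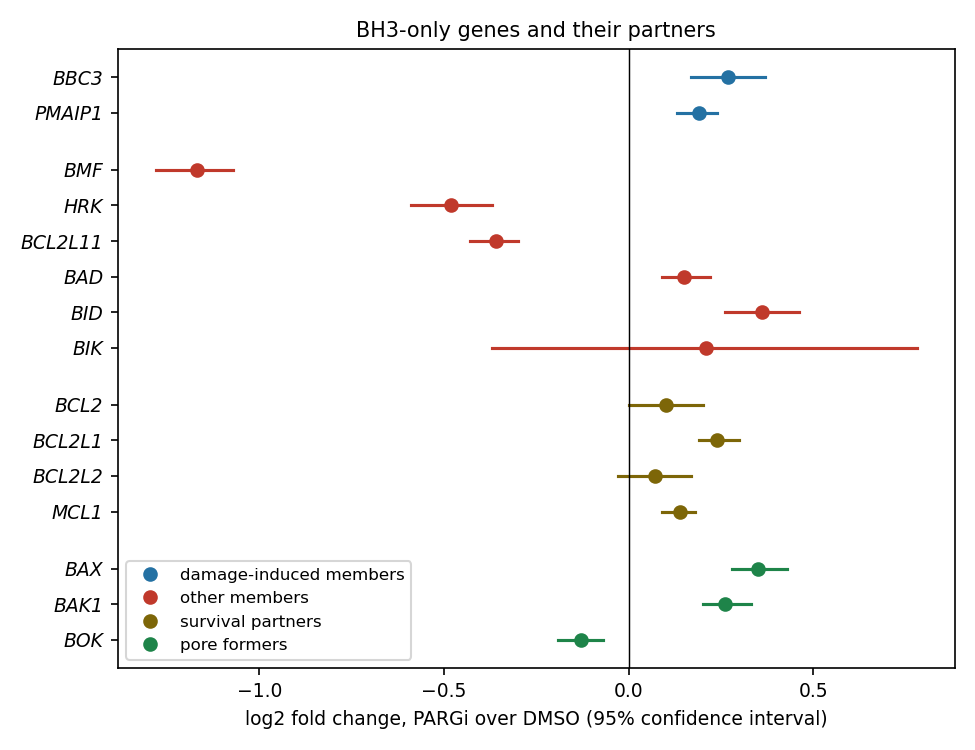
Log2 fold change of PARGi over DMSO (horizontal axis, points) with its 95% confidence interval (lines) for the BH3-only genes, the survival partners and the pore formers, fitted over 3 libraries per group. BBC3 and PMAIP1 lie right of 0 at 0.27 and 0.19, and BMF lies farthest left at -1.17.

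Ratios of raw counts within a library do not depend on how libraries are scaled to each other. BBC3 had 0.737, 0.729 and 0.909 counts for each count of BMF in DMSO, and 2.18, 2.20 and 2.07 in PARGi. The order of BBC3 and BMF counts was thus turned in every PARGi library, with a difference of 1.45 between the mean log2 ratios of the groups. For PMAIP1 over BMF the ratio went from 4.37, 4.63 and 5.06 to 11.4, 12.5 and 12.1, a log2 difference of 1.36. BMF also lost ground to the members that fell with it: the ratio of BCL2L11 to BMF was 2.52 to 2.80 in DMSO and 4.61 to 4.83 in PARGi, and that of HRK to BMF was 0.691 to 0.753 in DMSO and at least 1.10 in PARGi. These ratios compare read counts of genes of different length, so they show the shift between groups and not which protein or transcript is more abundant.

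**Figure D3:**
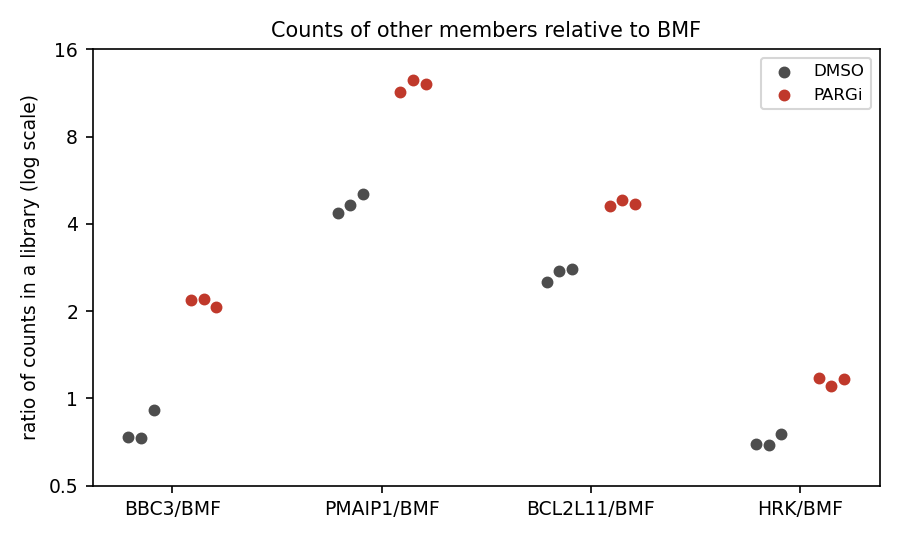
Counts of BBC3, PMAIP1, BCL2L11 and HRK divided by those of BMF in the same library (vertical axis, log scale), 1 point per library. For each pair all 3 PARGi libraries lie above all 3 DMSO libraries, and the BBC3 ratio passes from below 1 to above 2.

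To set the genes beside each other, CPM was divided by the exonic length of each gene in kilobases (GENCODE 29, all annotated exons merged). The annotation release behind the counts is not given, and merged exons can be longer than the transcripts present. The order of the genes is therefore approximate. In DMSO the level per kilobase was highest for PMAIP1 (47.2 ± 0.5), followed by BAD (25.3 ± 0.518) and BCL2L11 (9.10 ± 0.298). BBC3 (5.59 ± 0.405), BMF (4.14 ± 0.259), BID (3.55 ± 0.0825), HRK (2.34 ± 0.0707) and BIK (0.438 ± 0.153) followed (SD, n = 3 each). No neighbours in that order had overlapping libraries in DMSO. In PARGi BMF dropped from rank 5 to rank 6, at 1.84 ± 0.0467 CPM per kilobase, below BID at 4.55 ± 0.287. BCL2L11 (7.07 ± 0.0501) and BBC3 (6.77 ± 0.273) overlapped in PARGi, with a highest BBC3 library of 7.04 and a lowest BCL2L11 library of 7.01. BMF and HRK came close as well, with a lowest BMF library of 1.79 and a highest HRK library of 1.77 CPM per kilobase.

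Overlapping genes were checked because the strand setting of the counts is not given in the sources used here, although the library kit keeps the strand. BMF-AS1 lies on the opposite strand with 461 exonic bases inside BMF exons. It had 1 count in PARGi replicate 2 and 0 in the 5 other libraries, so the counts of BMF exons were not assigned to the antisense gene. Whether reads over the shared bases were counted for BMF or for neither gene cannot be told from these counts. BAD shares 404 exonic bases with GPR137 on the opposite strand, and GPR137 did not pass (edgeR adjusted p = 0.438, log2 fold change -0.03). BCL2L11 shares 727 exonic bases with the long non-coding RNA gene MIR4435-2HG on the opposite strand. MIR4435-2HG was lower in PARGi (152 ± 2.11 to 142 ± 1.93 CPM, log2 fold change -0.10, edgeR adjusted p = 0.00467), and its part in the BCL2L11 value was not tested.

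The genes around BMF were compared to see whether its neighbourhood moved with it. Of the genes with a start within 500000 bases of the BMF start on chromosome 15, 21 were tested. Counts past the threshold are given beside the shares over all tested genes, and nothing is read from them. None of the 21 was lower past the threshold in edgeR, beside 11.0% of all tested genes. INAFM2, KNSTRN and KNL1 were higher, beside 13.2% of all tested genes, although the KNSTRN groups overlapped. INAFM2, 215 kb away, had the largest of these changes (23.8 ± 0.936 to 29 ± 1.05 CPM, log2 fold change 0.28, edgeR adjusted p = 1.45e-05). The nearest abundant genes were SRP14, 69.7 kb to one side (log2 fold change -0.05, edgeR adjusted p = 0.147), and BUB1B, 52.1 kb to the other (0.04, edgeR adjusted p = 0.3). The median over the 21 genes was 0.01, beside -1.17 for BMF. The count of neighbours past the threshold in either direction fell from 3 to 1 without DMSO replicate 1 and also without PARGi replicate 2.

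**Figure D4:**
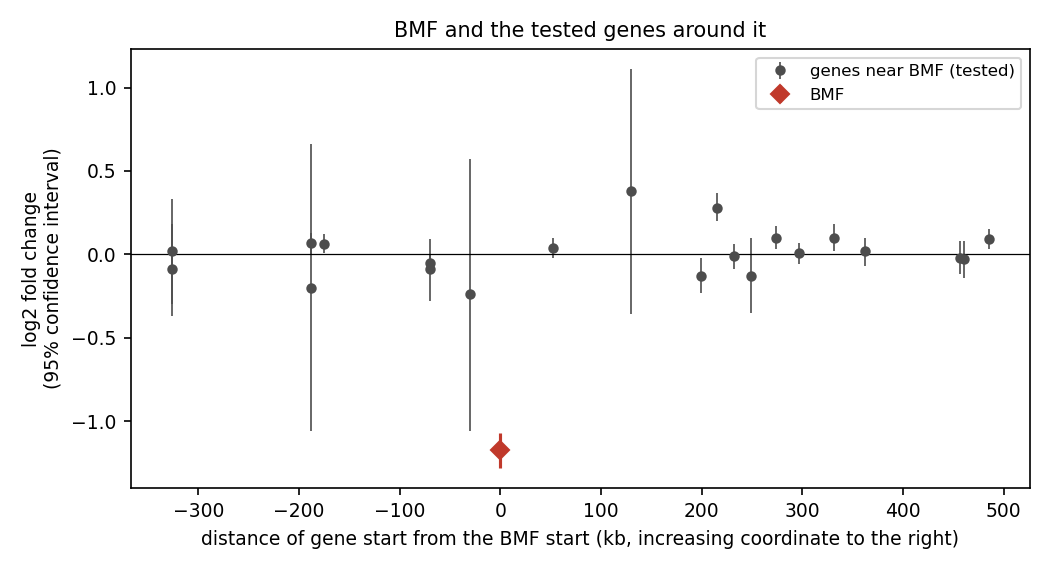
Log2 fold change of PARGi over DMSO with 95% confidence intervals (vertical axis) for BMF and the 21 tested genes whose start lies within 500000 bases, against the distance of their start from the BMF start in kilobases. BMF sits alone at -1.17, and the neighbours range from -0.24 to 0.38, the widest intervals belonging to scarce transcripts.

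Stretches before a RefSeq transcript start are shown for BMF, BCL2L11 and HRK, which were lower, and for PMAIP1, which was higher. Promoters were examined because FOXO factors are known to act on promoters of this family. Stretches of BBC3 and BID, which held no FOXO core, are not shown. The GENCODE gene BCL2L11 begins further upstream, at chr2:111119378. The BCL2L11 stretch, with its FOXO core, therefore lies inside that gene and not before it. Capitals mark CCAAT boxes (CCAAT), GC boxes (GGGCGG) and the FOXO core (GTAAACA), each searched on both strands, and overlapping matches are merged. The sequences are from RefSeq on GRCh38.p14, 5′ to 3′ on the strand of the gene, cut where an annotated exon begins.
BMF (chr15:40108893-40109129, minus strand): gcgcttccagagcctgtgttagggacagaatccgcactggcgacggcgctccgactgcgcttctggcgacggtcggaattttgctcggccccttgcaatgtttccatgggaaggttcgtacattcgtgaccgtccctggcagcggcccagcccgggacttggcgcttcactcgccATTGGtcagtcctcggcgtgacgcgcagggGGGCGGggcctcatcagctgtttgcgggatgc
BCL2L11 (chr2:111120664-111120913, plus strand): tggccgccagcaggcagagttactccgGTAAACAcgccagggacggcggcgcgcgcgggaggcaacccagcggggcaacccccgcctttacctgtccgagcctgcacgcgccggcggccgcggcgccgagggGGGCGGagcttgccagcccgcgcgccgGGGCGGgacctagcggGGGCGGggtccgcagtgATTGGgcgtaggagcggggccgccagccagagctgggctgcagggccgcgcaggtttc
HRK (chr12:116881442-116881691, minus strand): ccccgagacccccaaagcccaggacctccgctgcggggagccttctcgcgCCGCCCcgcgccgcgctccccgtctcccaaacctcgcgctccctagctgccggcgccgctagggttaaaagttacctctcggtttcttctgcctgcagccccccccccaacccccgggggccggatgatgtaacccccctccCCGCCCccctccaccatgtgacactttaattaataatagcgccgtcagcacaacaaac
PMAIP1 (chr18:59899746-59899947, plus strand): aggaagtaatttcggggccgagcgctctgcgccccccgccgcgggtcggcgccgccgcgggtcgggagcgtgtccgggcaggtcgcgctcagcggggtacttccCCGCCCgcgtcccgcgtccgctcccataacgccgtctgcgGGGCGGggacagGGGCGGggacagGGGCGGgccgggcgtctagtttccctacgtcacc

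RefSeq windows of 300 bases, reaching to 50 bases past a start, were found for 7 members, all but BIK. The FOXO core occurred in the BCL2L11 window alone among these, and in 3.42% of all 35116 windows. GC boxes occurred in 45.0% and CCAAT boxes in 34.6% of all windows. The BMF window of the outer start held 2 GC boxes and 1 CCAAT box, and its window at the inner start held none of these motifs. A missing match says only that these letters are not in these windows.

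Partners and regulators of the family came from lists that hold no member but share some genes with each other. They were tested in the same fit over all genes. Counts for these lists stand beside the shares over all tested genes: 24.3% past the threshold, 13.2% higher and 11.0% lower. The survival partners were measured in 4 of 6 cases, since BCL2A1 and BCL2L10 had too few counts. BCL2L1 rose from 132 ± 1.73 to 157 ± 1.41 CPM (log2 fold change 0.24, edgeR adjusted p = 8.75e-08). MCL1, the most abundant of them, rose from 365 ± 5.93 to 401 ± 2.18 CPM (0.14, edgeR adjusted p = 0.000147). BCL2 (0.10, 95% confidence interval 0 to 0.20) and BCL2L2 (0.07, -0.03 to 0.17) did not pass, and BCL2L2 shares exons with a read-through gene.

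Set against their partners, BIM and BMF transcripts lost ground and NOXA kept pace. The count ratio of BCL2L11 to BCL2L1 was 0.441 to 0.482 in DMSO and 0.298 to 0.305 in PARGi. For BMF over MCL1 it went from 0.0567 to 0.0653 in DMSO to between 0.0242 and 0.0255 in PARGi. PMAIP1 over MCL1 was 0.286 to 0.293 in DMSO and 0.291 to 0.303 in PARGi, with overlapping groups.

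All 3 pore formers passed, in different directions. BAX rose from 147 ± 11.1 to 188 ± 2.61 CPM (log2 fold change 0.35, edgeR adjusted p = 8.45e-08), and BAK1 rose from 48.8 ± 1.12 to 58.6 ± 1.30 CPM (0.26, edgeR adjusted p = 7.44e-07). BOK fell from 108 ± 1.77 to 98.5 ± 4.37 CPM (-0.13, edgeR adjusted p = 0.0023). Of 6 genes described with BH3-like stretches or as binders of the family, 2 rose and 2 fell. The strongest was BCL2L12 (0.18, edgeR adjusted p = 3.24e-05), and BNIP3L (-0.11) and BECN1 (-0.09), which act in mitophagy and autophagy, fell, although the BNIP3L groups overlapped. Without PARGi replicate 2 only BCL2L12 of these 6 passed, and without PARGi replicate 3 the count was 2. DESeq2 called 2 of the 6. BECN1 lost its call with DESeq2 (adjusted p = 0.0562) and when any library but DMSO replicate 3 was left out (edgeR adjusted p from 0.0602 to 0.132).

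Among 12 other damage-induced genes linked to death, 8 rose, 1 fell and 3 did not pass, with a median log2 fold change of 0.26. FAS, a death receptor, rose from 8.69 ± 0.917 to 17.6 ± 1 CPM (log2 fold change 1.02, edgeR adjusted p = 1.73e-11), and shares exonic bases with ACTA2 on the opposite strand. AEN (0.36), TNFRSF10B (0.31), ZMAT3 (0.29) and PIDD1 (0.28) rose as well, with edgeR adjusted p-values up to 8.22e-06. For scale, the damage-induced genes CDKN1A and MDM2 had log2 fold changes of 0.74 and 0.32. Beside the list median of 0.26, BBC3 had a value of 0.27 and PMAIP1 of 0.19.

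Of 7 tested genes of the death receptor arm, which activates BID, FAS, TNFRSF10B and TNFRSF1A (0.16) rose and none fell, and CASP8, the protease that cuts BID, had a log2 fold change of -0.02 (SE 0.04). Of 12 genes of the caspase arm 4 rose and none fell, where 24.3% of all tested genes passed and 13.2% were higher, so nothing is read from that count for the arm. The smallest p-values belonged to CASP6 (0.25, edgeR adjusted p = 0.000351), BIRC2 (0.11) and APAF1 (0.16). Without PARGi replicate 3, 2 of the 12 passed, and APAF1 was not among them (0.14, edgeR adjusted p = 0.0588). APAF1 lost its call without DMSO replicate 1 too (0.11, edgeR adjusted p = 0.0936).

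Of 15 tested upstream factors, 4 rose and 3 fell. FOXO3, known to activate BCL2L11 and BBC3, fell from 46.9 ± 1.40 to 42.1 ± 0.0936 CPM (log2 fold change -0.15, edgeR adjusted p = 0.000919), and FOXO4 fell by 0.26 on the log2 scale (edgeR adjusted p = 0.00274). SNAI2, a repressor known to act on BBC3, rose from 28 ± 0.579 to 42.1 ± 0.841 CPM (0.59, edgeR adjusted p = 1.05e-11). ATF3, a stress factor, rose by 0.37 (edgeR adjusted p = 9.1e-05). These values stand beside those of the members, and any link between them was not tested.

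Genes whose products hold, modify or turn over BH3-only proteins were counted last. Of 18, 7 rose and 2 fell, with a median log2 fold change of 0.04, and without PARGi replicate 2 the total was 5. The dynein light chains DYNLL1 (0.04, SE 0.025) and DYNLL2 (0.05, SE 0.042), anchors of BIM and BMF, did not pass. PIM1, a kinase that phosphorylates BAD, rose from 141 ± 2.53 to 161 ± 4.67 CPM (0.19, edgeR adjusted p = 7.96e-06). MAPK9, a kinase known to act on BIM and BMF, rose by 0.15 and FBXW7, which marks MCL1 for degradation, by 0.19 (edgeR adjusted p = 0.000325 and 0.000356).

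Genes most like BMF over the 6 libraries were sought by Pearson's r of log2 CPM among the 14878 genes that averaged 1 CPM or more, as a description. The closest were KAT6B (r = 0.9993), TIGD2 (0.9991) and KLHL24 (0.9989), with log2 fold changes of -0.24, -0.52 and -0.50, so their pattern was like that of BMF but their change was smaller. For BBC3 they were RELT (0.9968), HRAS (0.9963) and EBNA1BP2 (0.9959), with log2 fold changes of 0.22, 0.14 and 0.07. For PMAIP1 they were SCP2 (0.9996), CD44 (0.9987) and the unnamed ENSG00000226180 (0.9986), with log2 fold changes of 0.03, 0.46 and 0.44. A high r therefore did not mean a change of similar size. With 6 libraries in 2 groups such values are easily high: 81 genes exceeded 0.99 for BMF, 16 for BBC3 and 66 for PMAIP1.

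**Figure D5:**
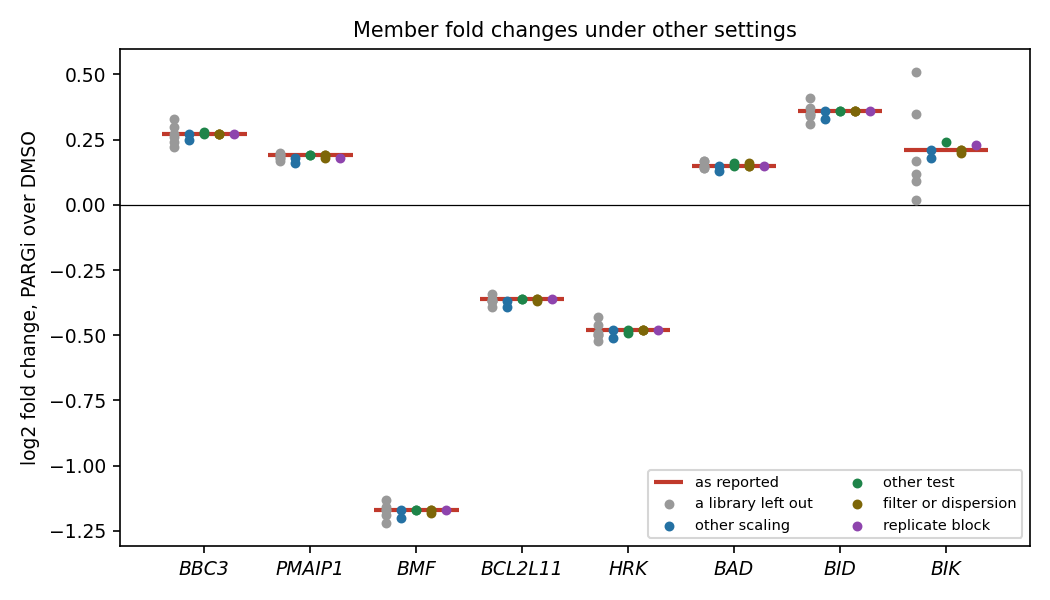
Log2 fold change of PARGi over DMSO (vertical axis) for each BH3-only gene as reported (red line) and under 14 other settings (points, coloured by the kind of setting). Values of 7 genes stay on their side of 0 with little movement, while BIK runs from 0.02 to 0.51.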

How the data were processed

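RNA sequencing counts of 6 U2OS libraries were analysed, 3 per group, with groups and replicate numbers from the sample titles. Per gene, the authors deposited unnormalised whole-number counts, made from stranded total RNA libraries per the labels' protocols. Per the submitters' processing notes, cutadapt 1.18, STAR 2.7.3a, SAMtools 1.9 and the build hg38 were used. The annotation release and the strand setting are not given in the sources used here. The series is described as biological triplicates. Rows that name no gene were 0.

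Members were matched by Ensembl identifier without version, and positions, exonic lengths and overlaps came from GENCODE 29 (GRCh38), which held 58440 of the 60708 identifiers. A gene name table gave symbols for 60507. The test was edgeR 4.0.16 in R 4.3.3 (filterByExpr, TMM, glmQLFit, two-sided glmQLFTest, Benjamini-Hochberg over 20409 genes), checked on simulated counts. The SE is the absolute log2 fold change over the square root of F. DESeq2 1.42.0 and limma 3.58.1 were alternatives. Figures used matplotlib 3.10.9.

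The members and lists were chosen with earlier results of these data known. Named were all members, 12 fixed partners and regulators, up to 3 further called genes per list with the smallest p, called neighbours of BMF, and the 3 genes most like BMF, BBC3 and PMAIP1. Genes that overlap a member, and genes named because they did not pass, were chosen after their values were seen. Protein sequences were not used here. A gene of the naming rule is not reported here.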

Additional observations from a re-analysis of the deposited data

How the results depend on the processing

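The 14 alternatives were other scaling (DESeq2 size factors, upper quartile), DESeq2, limma-voom, no filter or at least 10 counts per library, robust dispersions, a replicate block, and each library left out. In all 14 the count of BH3-only genes past the threshold was 7, and all 111 values of single members kept their direction and their side of the threshold. BIK has no value under DESeq2, which gave no adjusted p for it. With a library left out, BMF ran from -1.22 to -1.13, and BIK from 0.02 to 0.51. Upper-quartile scaling moved the median of all genes to -0.032 and BMF to -1.20. The replicate block left BMF at -1.17 and changed no call of a member. No label says whether replicate numbers pair the libraries. Deviations of same-numbered libraries correlated at -0.00911, -0.00714 and -0.0567, which with 3 libraries per group cannot settle it. With the block, the calls went from 4951 to 4553 over all genes, from 9 to 7 for protein-level regulators and from 3 to 2 for neighbours of BMF. DESeq2 called 2 of the 6 genes with BH3-like stretches in place of 4. With a library left out the counts ran from 1 to 3 for that list, from 2 to 4 for the caspase arm, from 5 to 9 for the protein-level regulators and from 1 to 4 for the neighbours of BMF. Of 434 values of 31 other named genes, 424 kept their side of the threshold, 10 changed side and 0 calls reversed direction. Of the 10, 6 belonged to BECN1, 2 to APAF1 and 1 to BNIP3L, which lost their calls. The last belonged to BCL2L2, which passed without DMSO replicate 3 (0.13, edgeR adjusted p = 0.0323). DYNLL2, which did not pass, changed direction without DMSO replicate 2, from 0.05 to -0.03, on the same side of the threshold. BIK had the fewest counts of the members, 23 to 40 per library, and the widest interval.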
